A study of Homo sapiens with 5 samples.

Results

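A microarray reads transcripts that have a gene symbol beside many that have none, and this account is about the second kind. The members are probe sets with no gene symbol in the platform annotation whose highest value over the 5 arrays was 8 or more on the deposited scale. They number 3561, which is 7.27% of the 48976 probe sets without a symbol and a part of the 65521 probe sets in the table. A further 16126 probe sets carried 1 symbol and 419 several. The cells were 5 lines made from HMLE, mammary epithelial cells of human origin that were immortalised. The FOXQ1, SNAI1, TWIST1 and ZEB2 lines overexpressed the transcription factor of that name, and the control line, LACZ, carries a bacterial reporter gene. No treatment was given, the cells were taken near confluence, and each line gave 1 array of total RNA. The question of the study was which changes the 4 models of the epithelial to mesenchymal transition (EMT) have in common.

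In EMT, epithelial cells lose their junctions and take on features of mesenchymal cells, and the 4 factors are known to drive it. Transcripts without a gene symbol can be long noncoding RNAs, antisense RNAs, unspliced introns, alternative ends of known genes, repeats or small RNAs. Which of these a member is was not given in the sources used here, and none is given a gene name or a sequence. Members are named by probe set ID, in which the first digits after TC give the chromosome, and the ending .hg.1 that all IDs share is left out.

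Levels keep the scale of the deposited values, which was taken as log2, and a difference is a factor array minus LACZ on that scale, so that 1 is 2-fold. With 1 array per line no difference has a replicate check, so no test was made and every count below is a description. The members were chosen by their highest value over these same 5 arrays. Therefore a member that is high on 1 array and low on the others is in by that array, and its differences support nothing about members as a class. In RNA of whole cultures, fewer cells with a transcript and less of it per cell cannot be told apart.

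The label expressed was checked first. Member levels had medians of 9.30 in FOXQ1, 9.43 in SNAI1, 9.14 in TWIST1 and 9.33 in ZEB2, against 9.33 on LACZ. The medians over all probe sets of the table lay between 4 and 4.05. The floor used for calls, 4.67, is the median of the mean levels of probe sets with 1 symbol, and every member was above it on at least 1 array by the rule. On all 5 arrays 2237 members reached 8, which is 62.8% of them, and 538 reached it on exactly 1 array. Of the probe sets with 1 symbol, 27.2% reached 8 on any array, and 73.1% of those did so on all 5. The highest value of a member was 19.49. At the edge of the rule 15 members had a highest value of exactly 8, and 11 probe sets without a symbol had 7.99 and were left out. TC0100006511 is 1 of those just inside, with levels of 8 in FOXQ1, 7.91 in SNAI1, 7.43 in TWIST1 and 7.91 in ZEB2 cells, against 7.52 in LACZ cells. TC0100008337 is 1 of those just outside, with levels of 7.62 in FOXQ1, 7.8 in SNAI1, 7.99 in TWIST1 and 7.76 in ZEB2 cells, against 7.76 in LACZ cells. Levels on both sides of the edge overlap on the other arrays, so the edge divides a continuous range.

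The lines were checked against genes that do have symbols. The FOXQ1 gene stood at 6.23 in FOXQ1 cells and at 3.56 to 3.61 in the 4 other lines. TWIST1 stood at 9.96 in its own line, against 5.55 in LACZ cells and 8.2 to 9.18 in the other factor lines. ZEB2 stood at 7.39 in its own line, against 3.57 in LACZ cells and 6.23 to 7.03 in the other factor lines. Both were highest in their own line but above LACZ in all 4 factor lines, so neither is particular to its line. SNAI1 was not analysed here. All 9 measured epithelial markers were lower than LACZ on all 4 factor arrays and 8 of 9 mesenchymal markers were higher. Of 5 leukocyte markers 3 (CD2, CD14 and CSF1R), and of 5 endothelial markers 3 (KDR, TEK and SELE), were below the floor on all 5 arrays. The remaining markers of both lists reached the floor on at least 1 array. Of 7 measured stromal fibroblast markers, 2 were higher than LACZ on all 4 factor arrays and 0 were lower on all 4. Another, TNXB, was below the floor on all 5 arrays. Their median levels were 8.6 in FOXQ1, 6.8 in SNAI1, 8.9 in TWIST1 and 7.76 in ZEB2, against 5.7 on LACZ. The values covered chromosomes 1 to 8 and part of 9.

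A member was called higher or lower when it was 2-fold or more from LACZ and the brighter of both arrays reached the floor. On FOXQ1, 322 members were higher and 432 lower, or 9.04% and 12.1% of members, against backgrounds of 3.26% and 4.15% of all probe sets. For SNAI1 the numbers were 401 higher and 259 lower, or 11.3% and 7.27%, against 3.4% and 3.62% of all probe sets. On TWIST1 there were 276 higher and 307 lower members, or 7.75% and 8.62%, against 3.09% and 3.22%. ZEB2 had 383 higher and 226 lower, or 10.8% and 6.35%, against 3.76% and 2.57%. Most of the table is dim and cannot pass the floor, so named probe sets that also reach 8 are the closer comparison. Among those 4388, calls were more frequent on FOXQ1, at 16.1% higher and 16% lower, and on ZEB2, at 15.4% higher and 8.77% lower. On SNAI1 the named probe sets had 10.2% higher and 18.1% lower calls, and on TWIST1 18% higher and 7.84% lower. Members and named probe sets therefore leaned to opposite sides on these last 2 arrays at 2-fold, clearly on SNAI1 and narrowly for the members on TWIST1. Of the members called on SNAI1, 60.8% were higher, against 36.1% of the named. Of those called on TWIST1, 47.3% of members were higher, against 69.6% of the named. The SNAI1 contrast kept its sides under 3 other scalings of the arrays, with 61.6% to 66.5% of members and 36.9% to 43.0% of named calls higher. The TWIST1 share for members was 45.1% to 50.8%, and so passed the even mark after centring on the median, while that of the named stayed between 66.5% and 72.7%. The lean of the members on TWIST1 also turned at 3-fold, with 153 higher and 121 lower, and for members reaching 9, with 187 higher and 183 lower.

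The median difference gives the same picture for the bulk of members. It was -0.04 in FOXQ1, 0.04 in SNAI1, -0.15 in TWIST1 and 0.01 in ZEB2 for members. For named probe sets reaching 8 it was 0.01, -0.24, 0.16 and 0.09 on the same arrays, and over all probe sets between -0.02 and 0.00. Among the 4 factor arrays, SNAI1 most often held the highest of all 5 values. It alone held the highest of the 5 values for 928 members, or 26.1%, against 212 named probe sets, or 4.83%. TWIST1 alone held it for 260 members, or 7.30%, against 1026 named probe sets, or 23.4%. FOXQ1 held it for 20.2% of members, ZEB2 for 17.6% and LACZ for 26.9%. Both sets were chosen by this same highest value, and 538 members reached 8 on exactly 1 array. Those are highest on that array by the rule, so these counts are no separate support for a contrast between arrays. The cause of the contrast was not tested, and with 1 array per line the array and the factor cannot be told apart.

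**Figure D1:**
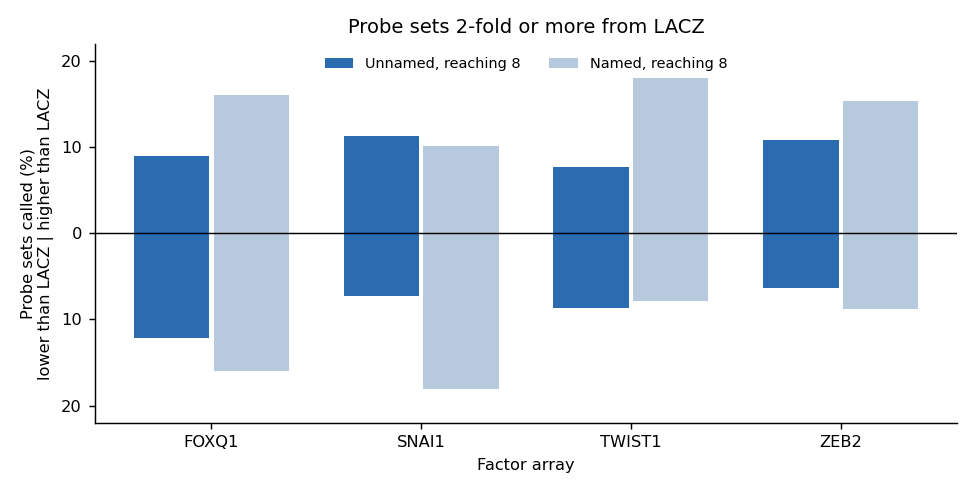
Percentage of probe sets called 2-fold or more higher (bars above 0) or lower (bars below 0) than LACZ on each factor array, for the 3561 unnamed and the 4388 named probe sets that reach 8. On SNAI1 more unnamed probe sets were higher (11.3%) than lower (7.27%), and on TWIST1 fewer were higher (7.75%) than lower (8.62%), while the named probe sets leaned the other way on both.

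On all 4 factor arrays together, 120 members were higher than LACZ, which is 3.37% of members, against 0.871% of all probe sets and 6.15% of the named that reach 8. A further 112 were lower on all 4, or 3.15%, against 1.1% and 4.6%. The 4 differences use the same LACZ array, so its value enters all of them. The median levels of the shared higher members were 9.48 in FOXQ1, 9.40 in SNAI1, 9.14 in TWIST1 and 9.06 in ZEB2, against 6.66 on LACZ. For the shared lower members they were 7.5, 7.6, 7.66 and 7.68 on the same factor arrays, against 10.26 on LACZ. Most were modest: the smallest of the 4 differences was under 2 in size for 79 of the higher and 75 of the lower members, and 3 or more for 22 in each direction. LACZ was below the floor for 10 of the higher members, and all 4 factor arrays were for 6 of the lower, so that the true size of those differences is not known.

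The leading shared higher members lay on 5 chromosomes. TC0700006923 had levels of 10.04 in FOXQ1, 12.54 in SNAI1, 12.97 in TWIST1 and 12.35 in ZEB2 cells, against 4.13 in LACZ cells. LACZ was below the floor here, and the nearest array, FOXQ1, was 5.91 above it. The ID numbers of named probe sets follow genome position, as 98.9% of 15518 steps between neighbouring numbers go forward in RefSeq's GRCh38.p14 coordinates, so the nearest named numbers place a member. By that measure it lies between RNU7-143P (chr7:23450658-23450722) and RPS2P32 (chr7:23490388-23491428), both pseudogenes. TC0500007242, numbered between C7 (chr5:40909497-40984643), a complement gene, and OXCT1-AS1 (chr5:41870030-41872241), had levels of 9.77 in FOXQ1, 9.63 in SNAI1, 11.94 in TWIST1 and 9.61 in ZEB2 cells, against 4.87 in LACZ cells. TWIST1 stood above the other factor arrays, which lay close together. TC0500008574 had levels of 11.32 in FOXQ1, 11.25 in SNAI1, 11.04 in TWIST1 and 13.11 in ZEB2 cells, against 6.62 in LACZ cells. ZEB2 was the highest here, and the other factor arrays lay close together. Its number falls between SLC12A2 (chr5:128083766-128189677), a chloride transporter, and ISOC1 (chr5:129094749-129114028).

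Members of the list on chromosomes 2, 4 and 8 differed in which factor array led. TC0400012022 had levels of 6.95 in FOXQ1, 11.08 in SNAI1, 9.9 in TWIST1 and 11.24 in ZEB2 cells, against 2.75 in LACZ cells, with FOXQ1 lowest of the factor arrays. TC0800007235 had levels of 11.07 in FOXQ1, 11.48 in SNAI1, 10.78 in TWIST1 and 11.82 in ZEB2 cells, against 6.46 in LACZ cells, which puts the 4 factor arrays within 1.04 of each other. TC0800007640 had levels of 10.74 in FOXQ1, 13.1 in SNAI1, 13.21 in TWIST1 and 12.88 in ZEB2 cells, against 6.71 in LACZ cells, again with FOXQ1 lowest of the factor arrays. TC0200016769, numbered between PECR and TNS1, had levels of 14.14 in FOXQ1, 12.84 in SNAI1, 12.22 in TWIST1 and 13.09 in ZEB2 cells, against 8.36 in LACZ cells, and here FOXQ1 was the highest. In no one of these members did a factor array overlap with LACZ, which follows from how they were chosen.

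The leading shared lower members were low on the factor arrays, often below the floor, and bright on LACZ. TC0700006839 had levels of 3.12 in FOXQ1, 3.21 in SNAI1, 3.19 in TWIST1 and 3.25 in ZEB2 cells, against 11.36 in LACZ cells. All 4 factor arrays lay below the floor and close to each other. TC0300013510, numbered between TPRG1-AS2 and P3H2, had levels of 5.09 in FOXQ1, 4.25 in SNAI1, 3.46 in TWIST1 and 3.95 in ZEB2 cells, against 12.63 in LACZ cells. TC0300009843 had levels of 5.56 in FOXQ1, 4.72 in SNAI1, 5.82 in TWIST1 and 5.91 in ZEB2 cells, against 13.07 in LACZ cells, and is numbered next to MIR944, a microRNA gene. TC0700010544 had levels of 4.36 in FOXQ1, 3.62 in SNAI1, 6.68 in TWIST1 and 3.14 in ZEB2 cells, against 11.92 in LACZ cells, with TWIST1 above the other factor arrays. TC0700012948 had levels of 2.83 in FOXQ1, 3.22 in SNAI1, 3.21 in TWIST1 and 5.1 in ZEB2 cells, against 10.13 in LACZ cells, where ZEB2 was the highest factor array. The other 3 leading lower members were TC0800011616, TC0100011399 and TC0400009427. TC0100011399 had levels of 4.3 in FOXQ1, 3.58 in SNAI1, 4.81 in TWIST1 and 5.03 in ZEB2 cells, against 10.49 in LACZ cells. TC0400009427 had levels of 4.77 in FOXQ1, 5.34 in SNAI1, 4.77 in TWIST1 and 4.69 in ZEB2 cells, against 10.27 in LACZ cells. TC0800011616, 4 numbers from ENPP2, which encodes the secreted phospholipase autotaxin, had levels of 3.19 in FOXQ1, 3.32 in SNAI1, 3.05 in TWIST1 and 3.29 in ZEB2 cells, against 8.79 in LACZ cells. The ENPP2 probe set went the other way, with 9.51 in FOXQ1, 10.80 in SNAI1, 11.44 in TWIST1 and 7.71 in ZEB2, against 3.78 on LACZ.

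**Figure D2:**
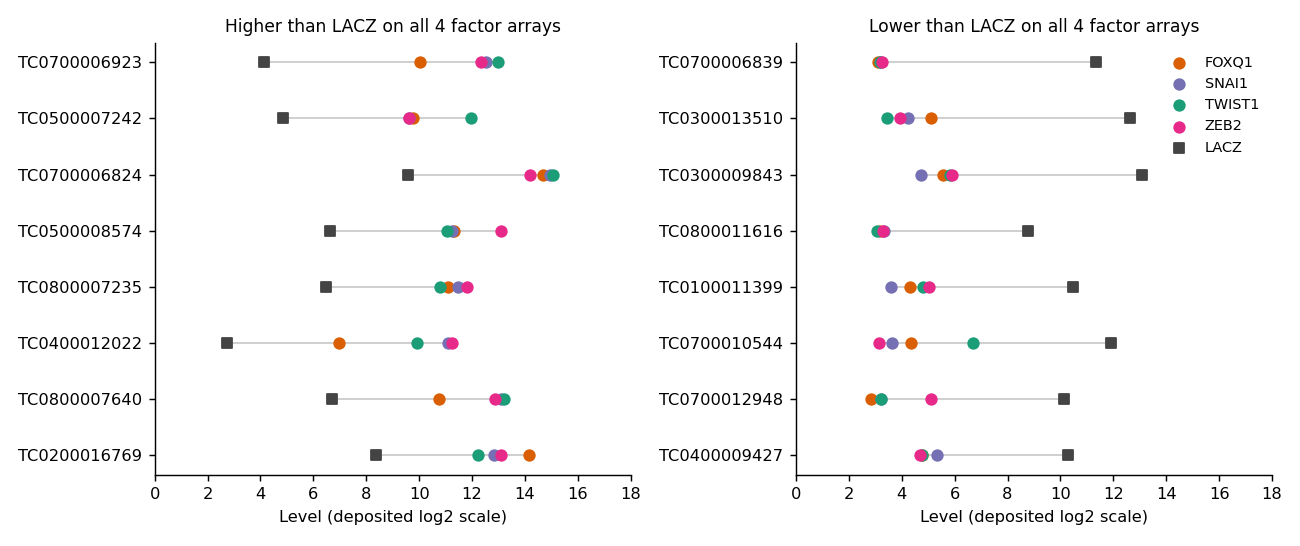
Levels on the deposited log2 scale of the 8 leading members in each direction, with 1 point per array (circles for the 4 factor arrays, a square for LACZ) and a line over the range. TC0700006923 was at 10.04 or more on the factor arrays and at 4.13 on LACZ, and TC0700006839 at 3.25 or less on the factor arrays and at 11.36 on LACZ.

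A stretch of chromosome 7 held leading members of both directions within 20 ID numbers. It lies between a probe set of HDAC9 (chr7:18086825-19002416), a histone deacetylase, and MACC1-AS1 (chr7:20141916-20153531). TC0700006823, TC0700006824 and TC0700006825 have consecutive numbers and were all higher on the 4 factor arrays. The middle one, TC0700006824, had levels of 14.68 in FOXQ1, 14.93 in SNAI1, 15.06 in TWIST1 and 14.18 in ZEB2 cells, against 9.56 in LACZ cells. Its neighbour TC0700006823 had levels of 9.01 in FOXQ1, 9.61 in SNAI1, 8.98 in TWIST1 and 8.6 in ZEB2 cells, against 7.33 in LACZ cells, and TC0700006825 had 8.23 in FOXQ1, 9.36 in SNAI1, 9.36 in TWIST1 and 8.21 in ZEB2 cells, against 6.5 in LACZ cells. All 3 had LACZ below all factor arrays, and levels of different probe sets are not compared. Further along, TC0700006839 was lower on all 4, as given above, and just before the stretch TC0700006819, between 2 probe sets of HDAC9, was lower too. TC0700006819 had levels of 4.93 in FOXQ1, 5.68 in SNAI1, 3.42 in TWIST1 and 5.08 in ZEB2 cells, against 8.44 in LACZ cells. The named probe sets on the 2 sides of the stretch were dim, at most 3.84 for HDAC9 and 3.88 for MACC1-AS1. Nearest numbers are mostly of the same strand, so named genes on the other strand of this stretch were not looked at. The other HDAC9 probe set, before TC0700006819, was lower on all 4 factor arrays, with 6.39 in FOXQ1, 5.94 in SNAI1, 6.6 in TWIST1 and 6.54 in ZEB2 cells, against 7.67 in LACZ cells. One other run of 3 consecutive numbers was shared, on chromosome 2 between GAPDHP25 and RPLP0P6, in the lower direction. TC0200007284 had levels of 10.63 in FOXQ1, 10.44 in SNAI1, 10.59 in TWIST1 and 10.27 in ZEB2 cells, against 12.11 in LACZ cells. Its differences were smaller than those of the next numbers on FOXQ1, SNAI1 and TWIST1, and larger on ZEB2. TC0200007285 had levels of 9.3 in FOXQ1, 9.16 in SNAI1, 8 in TWIST1 and 9.44 in ZEB2 cells, against 11.09 in LACZ cells, and TC0200007286 had 9.13 in FOXQ1, 9.53 in SNAI1, 9.67 in TWIST1 and 9.51 in ZEB2 cells, against 11.29 in LACZ cells.

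Some shared members moved beside a named gene. Of the 3561 members, 3516 could be placed between named probe sets on both sides, with a median distance of 311 kb from the start of the lower gene to the end of the upper. Of 119 placed shared higher members, 22 (18.5%) had a nearest named probe set that was shared higher too, against 5.32% of all placed members. For the shared lower members the number was 11 of 108 (10.2%), against 4.89%. In opposite directions, 8 of the 108 shared lower members (7.41%) had a nearest named probe set that was shared higher. Among the 119 shared higher members, 4 (3.36%) had one that was shared lower. Some genes, such as COL6A3 and FKBP5, were counted with 2 members. TC0400012022 is next to HHIP-AS1 (chr4:144642916-144646019), the antisense RNA of the hedgehog inhibitor gene HHIP, which had levels of 7 in FOXQ1, 8 in SNAI1, 7.74 in TWIST1 and 8.23 in ZEB2 cells, against 2.87 in LACZ cells. Both were lowest on FOXQ1 among the factor arrays, and below the floor on LACZ. TC0400012971 had levels of 14.55 in FOXQ1, 9.96 in SNAI1, 10.5 in TWIST1 and 7.01 in ZEB2 cells, against 3.58 in LACZ cells, and its difference of 10.97 on FOXQ1 was the largest of any member as deposited. LACZ was below the floor here, so the true size is not known. RNF150 (chr4:140859807-141212900), a RING finger protein gene numbered next to it, had levels of 10.03 in FOXQ1, 5.37 in SNAI1, 6.22 in TWIST1 and 5.12 in ZEB2 cells, against 3.66 in LACZ cells, with the same array highest. The nearest named genes of this member, SETD7 and RNF150, bracket 1720 kb, so its distance from RNF150 is not known. TC0200016195 had levels of 7.79 in FOXQ1, 12.2 in SNAI1, 11.44 in TWIST1 and 8.09 in ZEB2 cells, against 4.44 in LACZ cells, and TC0200016194 had 8.04 in FOXQ1, 11.78 in SNAI1, 10.53 in TWIST1 and 7.71 in ZEB2 cells, against 6.47 in LACZ cells. They follow COL6A3 (chr2:237324018-237414164), a chain of collagen VI, which had levels of 9.17 in FOXQ1, 12.65 in SNAI1, 11.33 in TWIST1 and 8 in ZEB2 cells, against 5.7 in LACZ cells. SNAI1 was highest and TWIST1 next for the gene and both members.

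The shared higher pairs held further named genes. TC0300008319 had levels of 10.05 in FOXQ1, 8.74 in SNAI1, 9.59 in TWIST1 and 9.32 in ZEB2 cells, against 5.47 in LACZ cells, near NECTIN3 (chr3:111071816-111194170), a cell adhesion gene, at 12.8 in FOXQ1, 11.15 in SNAI1, 11.89 in TWIST1 and 11.81 in ZEB2 cells, against 6.57 in LACZ cells. TC0300006624 had levels of 9.81 in FOXQ1, 9.44 in SNAI1, 9.91 in TWIST1 and 9.45 in ZEB2 cells, against 6.64 in LACZ cells, near PPARG (chr3:12287368-12434344), the nuclear receptor of fat cell differentiation, at 12.88 in FOXQ1, 10.09 in SNAI1, 12.02 in TWIST1 and 11.03 in ZEB2 cells, against 7.11 in LACZ cells. In both pairs FOXQ1 and TWIST1 were above the other factor arrays. TC0500011468 had levels of 6.09 in FOXQ1, 8.6 in SNAI1, 9.54 in TWIST1 and 10.02 in ZEB2 cells, against 4.23 in LACZ cells, and NR2F1-AS1 (chr5:93409356-93585589), a noncoding RNA gene, had 5.92 in FOXQ1, 9.4 in SNAI1, 10.13 in TWIST1 and 11.2 in ZEB2 cells, against 4.59 in LACZ cells. Here the order was the same in both, with ZEB2 highest and FOXQ1 lowest of the factor arrays. TC0600011636 and TC0600011637 follow FKBP5 (chr6:35573590-35728583), a glucocorticoid-responsive immunophilin gene that had levels of 15.92 in FOXQ1, 14.94 in SNAI1, 15.61 in TWIST1 and 14.97 in ZEB2 cells, against 13.17 in LACZ cells. TC0600011636 had levels of 10.24 in FOXQ1, 10.41 in SNAI1, 10.14 in TWIST1 and 9.79 in ZEB2 cells, against 8.3 in LACZ cells.

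Of the 11 shared lower pairs, 3 are given, chosen after their values were seen. TC0500011055 had levels of 5.16 in FOXQ1, 4.7 in SNAI1, 5.41 in TWIST1 and 4.71 in ZEB2 cells, against 10.11 in LACZ cells, next to OCLNP1 (chr5:71074203-71093070), a pseudogene of the tight junction protein occludin, at 5.14 in FOXQ1, 4.84 in SNAI1, 5.18 in TWIST1 and 4.43 in ZEB2 cells, against 12.02 in LACZ cells. OCLNP1 is a copy of OCLN, so probes of both may share signal. TC0100007747 had levels of 4.15 in FOXQ1, 5.92 in SNAI1, 7.6 in TWIST1 and 7.16 in ZEB2 cells, against 11.54 in LACZ cells, near GJB5 (chr1:34755047-34758512), a gap junction connexin, at 5.19 in FOXQ1, 5.62 in SNAI1, 6.57 in TWIST1 and 5.64 in ZEB2 cells, against 10.05 in LACZ cells. In this pair FOXQ1 was the lowest and TWIST1 the highest of the factor arrays for both. TC0400012247 had levels of 4.72 in FOXQ1, 5.38 in SNAI1, 5.95 in TWIST1 and 6.04 in ZEB2 cells, against 8.09 in LACZ cells, near GASK1B (chr4:158124474-158173025) at 5.16 in FOXQ1, 4.91 in SNAI1, 5.3 in TWIST1 and 5.31 in ZEB2 cells, against 8.17 in LACZ cells.

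Members numbered inside the span of a named gene allow a closer look at transcripts that may come from its introns or ends. A member was counted only where the next named probe set also began within the span, so genes without one are missing. There were 130 such members in 97 genes. On ZEB2, 25 of the 130 were called higher, and in 20 of those 25 the brightest probe set of the gene was 2-fold or more higher too. On SNAI1, 21 were higher and the gene was higher with 6 of them. FOXQ1 had 12 higher, 7 with a higher gene, and 22 lower, 5 with a lower gene. A lower member had a gene 2-fold or more higher in 2 cases there. TWIST1 had 7 higher, 5 with a higher gene, and 10 lower, 2 with a lower gene and 1 with a higher gene. For comparison, the gene was 2-fold or more higher with 37 of all 130 on ZEB2 (28.5%), 17 on SNAI1 (13.1%), 26 on FOXQ1 (20%) and 41 on TWIST1 (31.5%). It was 2-fold or more lower with 14 of the 130 on FOXQ1 (10.8%) and 8 on TWIST1 (6.15%). Of the 25 members higher on ZEB2, 7 reached 8 on that array alone. On SNAI1 3 of the 21 higher members did so, on FOXQ1 2 of the 12 and on TWIST1 0 of the 7. Members of 1 gene are set against the same gene value, so they are not separate agreements. EXT1, with 12 members, gave 10 of the 25 higher on ZEB2 and APBB2 gave 4. The brightest probe sets of both genes were 2-fold or more higher there. EXT1 also gave 7 of the 21 higher on SNAI1 and 9 of the 22 lower on FOXQ1. On those arrays its brightest probe set was less than 2-fold from LACZ.

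EXT1 (chr8:117794490-118111826), a glycosyltransferase that builds heparan sulfate chains, held the most members of any gene by this count. They were 12 of the 19 probe sets numbered from the first EXT1 probe set to the last. All 12 had their highest value on ZEB2 and 10 had their lowest on FOXQ1. Of the 12, 3 reached 8 on ZEB2 alone and are members through that array only. The 4 unnamed probe sets of the same stretch that stayed under 8 are no members, and 2 of them were highest on ZEB2 and 3 lowest on FOXQ1. The members' median differences were -1.68 in FOXQ1, 1.14 in SNAI1, 0.26 in TWIST1 and 1.82 in ZEB2. On FOXQ1, 9 of the 12 were called lower, on SNAI1 7 were called higher and on ZEB2 10 were higher, while 0 were called on TWIST1. TC0800011589, the brightest of them on ZEB2, had levels of 7.56 in FOXQ1, 10.57 in SNAI1, 9.89 in TWIST1 and 11.72 in ZEB2 cells, against 9.3 in LACZ cells. TC0800011594 had levels of 7.03 in FOXQ1, 10.16 in SNAI1, 8.97 in TWIST1 and 10.37 in ZEB2 cells, against 8.64 in LACZ cells, and TC0800011596 had 6.81 in FOXQ1, 9.79 in SNAI1, 8 in TWIST1 and 10.17 in ZEB2 cells, against 8.26 in LACZ cells. The order was the same in these 3, with ZEB2 highest, then SNAI1, then TWIST1, and with FOXQ1 lowest. TC0800011593 was an exception, with all arrays close together, and had levels of 9.18 in FOXQ1, 9.37 in SNAI1, 9.16 in TWIST1 and 9.55 in ZEB2 cells, against 9.37 in LACZ cells. Another exception was TC0800011581, lowest on LACZ, with levels of 9.49 in FOXQ1, 9.56 in SNAI1, 9.56 in TWIST1 and 11.12 in ZEB2 cells, against 9.36 in LACZ cells.

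EXT1 itself was measured by 3 probe sets. The brightest had levels of 12.80 in FOXQ1, 14.26 in SNAI1, 14.81 in TWIST1 and 15.29 in ZEB2, against 13.32 on LACZ, so that TWIST1 was above SNAI1 and FOXQ1 was 0.52 below LACZ. The other 2 had 7.27 and 5.27 in FOXQ1, 10.21 and 6.51 in SNAI1, 8.95 and 6.2 in TWIST1 and 11.11 and 8.05 in ZEB2, against 9.21 and 6.51 on LACZ. These dimmer 2 had the order of the members, with ZEB2 highest and FOXQ1 lowest. A further 3 members with consecutive numbers lie between MED30 and SAMD12-AS1 in another pass of the numbering, and on chromosomes with strand data a pass holds mostly 1 strand. Of these, TC0800008645 had levels of 7.5 in FOXQ1, 10.15 in SNAI1, 9.32 in TWIST1 and 10.82 in ZEB2 cells, against 9.04 in LACZ cells, and TC0800008646 had 6.17 in FOXQ1, 9.66 in SNAI1, 8.88 in TWIST1 and 10.67 in ZEB2 cells, against 9.4 in LACZ cells. TC0800008647 had levels of 6.7 in FOXQ1, 8.54 in SNAI1, 8.31 in TWIST1 and 8.54 in ZEB2 cells, against 7.74 in LACZ cells, and all 3 were lowest on FOXQ1. In windows along the chromosomes, chosen after the values were seen, the 48 members placed from 100 to 120 Mb of chromosome 8 had median differences of -0.32 in FOXQ1, 0.20 in SNAI1, -0.16 in TWIST1 and 0.18 in ZEB2. With the window divided, the 24 members from 100 to 110 Mb had medians of -0.09, 0.06, -0.19 and 0.03 on the same arrays. The other 24 members, from 110 to 120 Mb, had medians of -1.50 in FOXQ1, 0.74 in SNAI1, -0.06 in TWIST1 and 1.32 in ZEB2. The medians of the 13 named probe sets reaching 8 from 110 to 120 Mb were -0.63, -0.06, -0.31 and 0.06. The members from 110 to 120 Mb include those of EXT1.

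**Figure D3:**
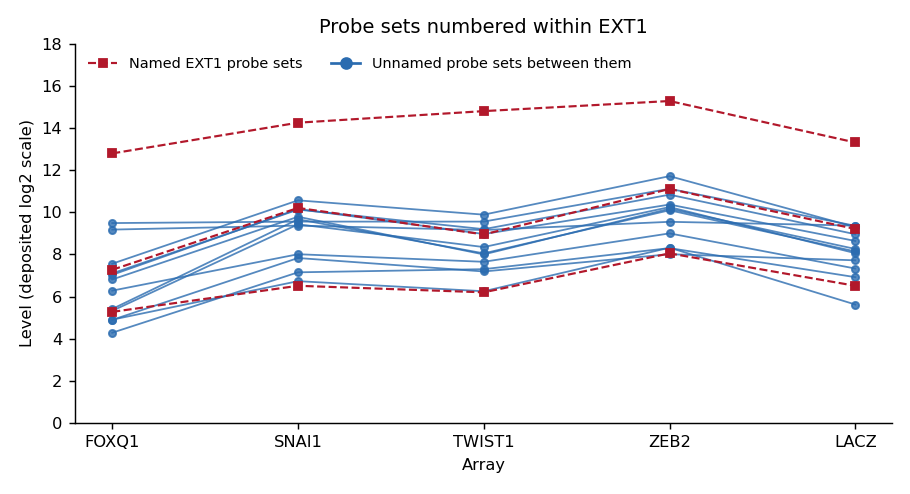
Levels on the deposited log2 scale, by array, of the 12 members numbered within EXT1 (circles, solid lines) and the 3 named EXT1 probe sets (squares, dashed lines). All 12 members peak on ZEB2 and 10 have their lowest value on FOXQ1, and the brightest EXT1 probe set runs from 12.80 on FOXQ1 to 15.29 on ZEB2.

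Other genes with several members inside showed other patterns. In APBB2 (chr4:40810027-41214542), which encodes a protein that binds the amyloid precursor protein, 4 of 5 members were higher on ZEB2, with a median difference of 1.26 over the 5. All 4 reached 8 on ZEB2 alone, so they are members only through the array on which they are high, and their count follows from the choice of members. Over all 5 members the medians on the other arrays were -0.10 on FOXQ1, 0.26 on SNAI1 and 0.19 on TWIST1. The brightest probe set of the gene differed by 2.47 in FOXQ1, 1.55 in SNAI1, 2.27 in TWIST1 and 2.66 in ZEB2 cells. TC0400010522 had levels of 5.95 in FOXQ1, 6.19 in SNAI1, 6.4 in TWIST1 and 8.22 in ZEB2 cells, against 6.05 in LACZ cells, which puts ZEB2 apart from the 4 others. In PTBP2 (chr1:96721784-96823739), a splicing regulator of neurons, the 4 members had a median of 1.06 on SNAI1 and between 0.19 and 0.40 on the other arrays. Of these, 2 were called higher on SNAI1. One of them, TC0100009146, reached 8 on SNAI1 alone, with 8.8 there and at most 7.67 elsewhere, so it is a member only through that array. The brightest PTBP2 probe set differed most on TWIST1, by 1.37.

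Members that set 1 factor array apart were 2-fold or more from LACZ and from each other factor array in the same direction. FOXQ1 had the most, with 86 above (2.42% of members) and 136 below (3.82%), against 0.67% and 0.815% of all probe sets and 2.8% and 4.26% of the named reaching 8. SNAI1 had 32 above (0.899%) and 25 below (0.702%), against 0.365% and 0.411% of all probe sets. The share above was higher for members than for the named, 0.524%, and the share below lower, with 3.26% for the named. TWIST1 had 12 above (0.337%) and 11 below (0.309%), against 0.177% and 0.139% of all probe sets and 0.684% and 0.0912% of the named. ZEB2 had 39 above (1.1%) and 16 below (0.449%), against 0.49% and 0.0977% of all probe sets and 1.32% and 0.387% of the named, and the ZEB2 count above was 24 after quantile normalization.

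On FOXQ1, 2 of the 3 members furthest above were below the floor on all other arrays. TC0100016313, numbered between CD247 and ADCY10, had levels of 9.8 in FOXQ1, 4.27 in SNAI1, 4.58 in TWIST1 and 3.49 in ZEB2 cells, against 3.52 in LACZ cells. TC0800007996 had levels of 8.92 in FOXQ1, 3.99 in SNAI1, 4.12 in TWIST1 and 3.75 in ZEB2 cells, against 3.36 in LACZ cells, and is numbered between CRISPLD1 and HIGD1AP6. TC0400008850 had levels of 13.01 in FOXQ1, 7.22 in SNAI1, 8.13 in TWIST1 and 5.85 in ZEB2 cells, against 4.6 in LACZ cells, where the other factor arrays were also above LACZ. Those furthest below were bright on all other arrays. TC0500007770 had levels of 8.28 in FOXQ1, 14.05 in SNAI1, 13.61 in TWIST1 and 13.6 in ZEB2 cells, against 13.6 in LACZ cells, next to BTF3, a basal transcription factor gene that lay between 15.68 and 16.59 on all arrays. TC0100008676 had levels of 6.04 in FOXQ1, 13.14 in SNAI1, 12.47 in TWIST1 and 14.08 in ZEB2 cells, against 14.62 in LACZ cells, a difference of -8.58 on FOXQ1. TC0500007330 had levels of 5.67 in FOXQ1, 10.76 in SNAI1, 12 in TWIST1 and 12.93 in ZEB2 cells, against 12.82 in LACZ cells. TC0400007857 had levels of 6.6 in FOXQ1, 11.04 in SNAI1, 12.19 in TWIST1 and 14.16 in ZEB2 cells, against 14.74 in LACZ cells, and is 4 numbers from EREG (chr4:74365145-74388749), the EGF receptor ligand epiregulin. EREG itself had 4.44 in FOXQ1, 7.18 in SNAI1, 8.23 in TWIST1 and 9.41 in ZEB2, against 6.79 on LACZ, with the factor arrays in the same order.

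On SNAI1 the 3 members furthest above included 2 that are numbered next to genes of U1, the small nuclear RNA that recognises the 5′ splice site. TC0100007086, beside RNU1-2, had levels of 6.08 in FOXQ1, 10.32 in SNAI1, 7.46 in TWIST1 and 6.48 in ZEB2 cells, against 6.5 in LACZ cells. TC0100013053, beside RNU1-3, had levels of 7.75 in FOXQ1, 10.68 in SNAI1, 8.05 in TWIST1 and 7.67 in ZEB2 cells, against 7.51 in LACZ cells. A further member, TC0100007076, beside RNU1-4 and picked out after its values were seen, had levels of 8.48 in FOXQ1, 10.96 in SNAI1, 8.78 in TWIST1 and 8.55 in ZEB2 cells, against 7.95 in LACZ cells. In all 3, SNAI1 stood 2-fold or more above every other array. The named U1 probe sets leaned the same way: of 16 that reach 8, 14 were higher than LACZ on SNAI1, with a median difference of 1.63, and 15 had their highest value there. On the other arrays 2 were higher on FOXQ1, 2 on TWIST1 and 0 on ZEB2, with medians of -0.33, 0.72 and 0.08. U1 genes are near-identical copies, so their probe sets share signal and are not independent. RNU1-2 and RNU1-4 had the same 5 values, with 13.13 on SNAI1, against 11.13 on LACZ. These 3 are the only ones of 14 members numbered beside a U1 probe set for which that holds. Of the other 11, 1 was called higher on SNAI1 and 4 were above LACZ there, with differences from -1 to 1.08. As an example, TC0100015644, beside RNVU1-7, had levels of 9.69 in FOXQ1, 10.04 in SNAI1, 9.23 in TWIST1 and 9.6 in ZEB2 cells, against 9.7 in LACZ cells.

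SNAI1 stood furthest below the other arrays in TC0100014340, with levels of 11.52 in FOXQ1, 6.92 in SNAI1, 10.05 in TWIST1 and 9.4 in ZEB2 cells, against 14.42 in LACZ cells. LACZ was by far the brightest there, and the factor arrays were all lower. TC0800009320 had levels of 6.07 in FOXQ1, 3.85 in SNAI1, 6.31 in TWIST1 and 8.27 in ZEB2 cells, against 6.86 in LACZ cells. The third was TC0500011868, 16 numbers from LOX, the collagen cross-linking enzyme, with levels of 8.05 in FOXQ1, 5.99 in SNAI1, 7.58 in TWIST1 and 7.58 in ZEB2 cells, against 7.58 in LACZ cells. Its values on TWIST1, ZEB2 and LACZ were the same to the last decimal, whereas LOX had 15.33 on TWIST1, against 8.19 on LACZ. Such ties occurred elsewhere: 60 members had the same value on exactly 3 arrays, 4 on exactly 4 and 1 on all 5, against 21, 2 and 0 named probe sets reaching 8.

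TWIST1 set the fewest members apart of the 4 factor arrays, and ZEB2 about as many as SNAI1. TC0600013996, 2 numbers from THBS2, a matrix glycoprotein gene, had levels of 6.33 in FOXQ1, 6.45 in SNAI1, 9.09 in TWIST1 and 4.95 in ZEB2 cells, against 6.02 in LACZ cells. TC0500006481 had levels of 6.85 in FOXQ1, 7.45 in SNAI1, 9.4 in TWIST1 and 6.55 in ZEB2 cells, against 7.28 in LACZ cells, so TWIST1 was 1.95 above the next array. TC0900007251 was lowest on TWIST1, with levels of 7.51 in FOXQ1, 8.66 in SNAI1, 5.84 in TWIST1 and 8.47 in ZEB2 cells, against 7.87 in LACZ cells. TC0800010288 had levels of 6.83 in FOXQ1, 8.17 in SNAI1, 6.4 in TWIST1 and 10.1 in ZEB2 cells, against 6.56 in LACZ cells, and ZEB2 was 1.93 above the next. TC0400011388, between TSPAN5 and the translation factor gene EIF4E, had levels of 5.3 in FOXQ1, 5.28 in SNAI1, 5.83 in TWIST1 and 8.34 in ZEB2 cells, against 6.1 in LACZ cells. TC0900007094 had levels of 9.81 in FOXQ1, 9.45 in SNAI1, 9.9 in TWIST1 and 5.12 in ZEB2 cells, against 11.19 in LACZ cells, and is the member furthest below the other arrays on ZEB2. TC0200016642, numbered between HS1BP3 and DNMT3A, which bracket 4789 kb, had levels of 12.42 in FOXQ1, 12.7 in SNAI1, 11.9 in TWIST1 and 8.66 in ZEB2 cells, against 11.53 in LACZ cells.

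Some of the largest differences on single arrays belonged to members outside the leading 8 of each direction. TC0600009249, next to VGLL2, a transcriptional cofactor gene, had levels of 2.75 in FOXQ1, 11.97 in SNAI1, 11.73 in TWIST1 and 8.06 in ZEB2 cells, against 2.88 in LACZ cells. SNAI1 and TWIST1 were near 12 while FOXQ1 and LACZ were both below the floor. VGLL2 itself was below the floor on all arrays, at most 4.46. TC0300011830 had levels of 5.94 in FOXQ1, 12.16 in SNAI1, 11.38 in TWIST1 and 13.9 in ZEB2 cells, against 7.08 in LACZ cells, with FOXQ1 lowest and ZEB2 highest. TC0400007992, next to COPS4, a signalosome subunit gene, had levels of 14.18 in FOXQ1, 12.04 in SNAI1, 14.79 in TWIST1 and 9.79 in ZEB2 cells, against 6.36 in LACZ cells, and COPS4 lay between 11.92 and 12.97. This member was 2-fold or more higher on all 4 factor arrays, with ZEB2 closest to LACZ. TC0200014615 had levels of 10.27 in FOXQ1, 8.67 in SNAI1, 7.53 in TWIST1 and 4.26 in ZEB2 cells, against 2.67 in LACZ cells, an order from FOXQ1 down to ZEB2 with LACZ lowest.

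Most members were steady across the lines. On no array were 2303 called (64.7%), against 48.8% of the named reaching 8, and 69 were called in both directions. Members called on 1 array numbered 556, on 2 arrays 293, on 3 arrays 172 and on all 4 237. The range over the 5 arrays was under 1 for 2024 members (56.8%), against 38.1% of the named, and the median range was 0.87, against 1.2. At least 4 separated the arrays for 117 members, or 3.29%, and 6.34% of the named. The share of steady members grew with level in every band: 27.0% with a mean under 8, 57.3% from 8 to 10, 62.5% from 10 to 12, 68.0% from 12 to 14, 82.2% from 14 to 16 and 98.0% of 245 at 16 or more. For named probe sets the same bands gave 17.4%, 35%, 36.4%, 42.9%, 57.4% and 86.8%. Both sets were chosen to reach 8, so with a mean under 8 the highest array lies above the mean by the rule. The low share in that band follows in part from the choice. Members were steadier in all 6 bands, and 245 of them had a mean of 16 or more, against 167 of the more numerous named.

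**Figure D4:**
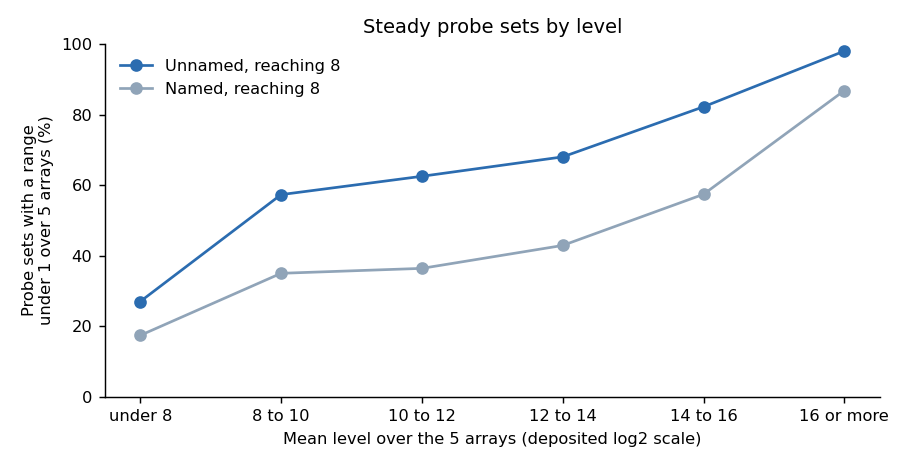
Percentage of probe sets whose 5 values span less than 1 on the deposited log2 scale, by mean level, for unnamed and named probe sets that reach 8. The unnamed lie above the named in all 6 bands, at 27.0% against 17.4% in the lowest and 98.0% against 86.8% in the highest. Probe sets in the lowest band have a mean under 8 yet reach 8, so their low share follows in part from the choice.

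The brightest members were among the steady ones. TC0300009145, numbered between WWTR1-AS1 and RNF13, had levels of 19.47 in FOXQ1, 19.17 in SNAI1, 19.49 in TWIST1 and 19.32 in ZEB2 cells, against 19.25 in LACZ cells. TC0300006637, between CRIP1P1 and the histone deacetylase gene HDAC11, had levels of 19.04 in FOXQ1, 19.05 in SNAI1, 19.05 in TWIST1 and 19.03 in ZEB2 cells, against 19.04 in LACZ cells, a range of 0.02. TC0700012732 had levels of 19.04 in FOXQ1, 19.05 in SNAI1, 18.96 in TWIST1 and 18.92 in ZEB2 cells, against 19.28 in LACZ cells, 2 numbers from CREB3L2, a transcription factor gene that was between 10.82 and 11.36 on the factor arrays, against 8.61 on LACZ. TC0500010787 had levels of 18.87 in FOXQ1, 18.89 in SNAI1, 18.6 in TWIST1 and 18.78 in ZEB2 cells, against 18.69 in LACZ cells, next to IL6ST, a cytokine receptor subunit gene that lay between 14.04 and 15.73. The one member with the same value on all arrays was TC0100010797, at 17.74. Whether the brightest spots can still show a difference on this scale was not tested.

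Members were spread over all chromosomes read. Their share of the unnamed probe sets ran from 5.74% on chromosome 4 (284 of 4952, exact 95% interval 5.10% to 6.42%) to 8.83% on chromosome 1 (756 of 8566, 8.23% to 9.45%), with 8.46% on chromosome 7 (447 of 5283). These intervals cover the counting of probe sets only. Chromosome 9 stood out on FOXQ1: 28 of its 95 members were called lower, or 29.5%, against 9.11% to 16.3% on the 8 others. Of the named probe sets reaching 8 on chromosome 9, 16.7% were lower there, and 10.4% to 24.2% on the others. By 20 Mb window, members lower on FOXQ1, SNAI1, TWIST1 and ZEB2 were 5, 1, 1 and 3 of 15 from 0 Mb. From 20 Mb they were 5, 1, 3 and 1 of 26, and from 60 Mb 7, 4, 5 and 3 of 17. From 80 Mb they were 7, 5, 5 and 4 of 29. FOXQ1 had the most in each window, but lower calls were not confined to it. Over all members the lower shares were 12.1%, 7.27%, 8.62% and 6.35% on these arrays. The 28 differences on FOXQ1 lay between -5.34 and -1.01 with a median of -1.48, and 21 of the 28 had their lowest value on FOXQ1. TC0900007720 had levels of 10.39 in FOXQ1, 14.42 in SNAI1, 14.31 in TWIST1 and 15.44 in ZEB2 cells, against 15.73 in LACZ cells, the largest of these differences. TC0900007423 had levels of 6.37 in FOXQ1, 9.86 in SNAI1, 7.52 in TWIST1 and 9.74 in ZEB2 cells, against 9.55 in LACZ cells, low on TWIST1 as well. Some of the 28 were lower on all 4 arrays, such as TC0900006497, with levels of 6.74 in FOXQ1, 6.75 in SNAI1, 6.78 in TWIST1 and 6.7 in ZEB2 cells, against 8.1 in LACZ cells. Only part of chromosome 9 was covered.

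Some members cannot be counted as separate transcripts. There were 47 members (1.32%) in 17 sets whose values were identical on all 5 arrays, against 13 of the named reaching 8 (0.296%). In 6 of the sets, with 21 members, the IDs were on more than 1 chromosome. The largest set had 8 members on chromosomes 2, 5 and 7, among them TC0200012672, with levels of 9.97 in FOXQ1, 12.56 in SNAI1, 12.64 in TWIST1 and 13.03 in ZEB2 cells, against 13.07 in LACZ cells. A set of 4 on chromosomes 2, 3 and 5, among them TC0300007532, had levels of 10.43 in FOXQ1, 12.9 in SNAI1, 13.26 in TWIST1 and 13.7 in ZEB2 cells, against 13.99 in LACZ cells. Both sets were lower on FOXQ1 by 3 or more and had the same order, with LACZ highest. TC0400012294 and TC0700011807 shared levels of 7.12 in FOXQ1, 8.82 in SNAI1, 9.07 in TWIST1 and 9.96 in ZEB2 cells, against 9.23 in LACZ cells, again with FOXQ1 lowest. In all, 4 sets were 2-fold or more lower on FOXQ1, and 6 sets had a range under 1. A set of 3 on chromosomes 1 and 4, with TC0100008364, was at 18.53 to 18.69 on all arrays. No probe set outside the members shared the values of any set, and whether these members share probes was not given in the sources used here.

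**Figure D5:**
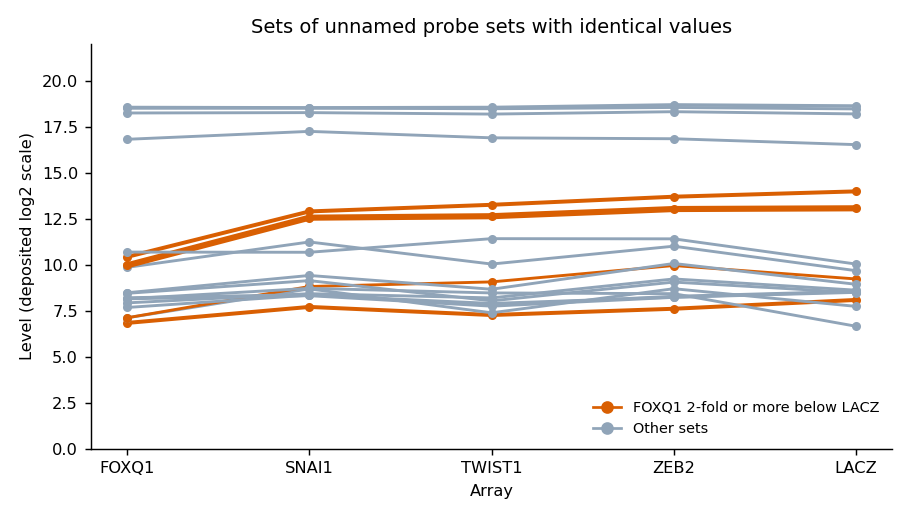
Levels on the deposited log2 scale, by array, of the 17 sets of members with identical values, with 1 line per set and thicker lines for sets with more members. The 4 sets in orange are 2-fold or more lower on FOXQ1 than on LACZ, led by the set of 8 at 9.97 on FOXQ1 and 13.07 on LACZ.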

How the data were processed

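Affymetrix arrays measured total RNA of 5 lines made from HMLE, with 1 array for each line named in the labels. The values the authors deposited run from 1.99 to 19.73 with 2 decimals and were taken as log2, a base that no source states. A 16-bit scanner reading has a log2 of at most 16, so some transformation preceded deposit, and a 2-fold threshold is 2-fold only on base 2. Per the submitters' processing notes, the Transcriptome Analysis Console and build hg38 were used. The version, normalization method and array model are not given in the sources used here. Array medians, 4 to 4.05, were nearly equal as deposited, and no scaling was added.

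Members were taken by symbol and level, and symbols came from the platform annotation. The members and lists were chosen with earlier results of these data known. Named members followed a rule: in each direction the 8 shared members with the largest smallest difference, and per factor and direction the 4 largest differences and the 3 furthest apart. The rule also took the 6 brightest, the 6 steadiest, those at the edge of 8 and runs of 3 or more consecutive shared numbers. Of these the text gives most, and summarises the rest. Neighbour pairs, members inside genes, the U1 and chromosome 9 members and the identical sets were chosen after their values were seen.

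Positions of named probe sets came from RefSeq's GRCh38.p14 genes, and 15566 had a position on the chromosome in the ID. Numbers run along a chromosome in several passes, and 98.9% of 7845 named probe sets with a known strand were on the majority strand of their pass. A member counted as inside a gene when the next named gene began within the span of the one before. The number of arrays limits the precision, and no test was made. The calling was tested on simulated data. The work ran under Python 3.11.15 with scipy 1.17.1, pandas 2.3.3, numpy 2.4.6, statsmodels 0.14.6 and matplotlib 3.10.9. Alternatives were quantile normalization, centring on the median, loess with a span of 0.3, other floors, folds and member levels, and other definitions of sharing.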

Additional observations from a re-analysis of the deposited data

Results flagged for a closer look

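Of the 69 members called in both directions, 2-fold or more above LACZ on 1 factor array and below it on another, the 4 whose smaller side was largest are given. With 1 array per line the difference between the lines was not tested. TC0700011742 differed by -3.34 on FOXQ1 and 3.01 on SNAI1. TC0100006986 differed by 2.20 on FOXQ1 and -2.31 on ZEB2. TC0800011592 differed by -2.74 on FOXQ1 and 2.19 on ZEB2, and TC0800011583 by -2.73 on FOXQ1 and 1.96 on ZEB2. These last members are both numbered within EXT1.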

How the results depend on the processing

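No paired analysis was possible because each line had 1 array. Quantile normalization, centring on the median, loess and counting identical sets once left 75 of 76 counts within 1.5 times of those reported, and the exception was the members with ZEB2 above all other arrays, 24 after quantile normalization. All 198 values of named members under the 3 scalings kept their side of 2-fold, and 3 values of 2 steady members, of at most 0.14 in size, turned their sign. Leaving out 1 factor array gave 128 to 178 members higher on the other 3 and 119 to 138 lower, and sharing by at least 3 of 4 arrays gave 223 higher and 174 lower. Floors of none or at percentile 75 moved no count by over 1.5 times.

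Counts depend on the fold. At 1.5-fold the higher and lower members were 539 and 734 for FOXQ1, 707 and 508 for SNAI1, 468 and 747 for TWIST1 and 618 and 507 for ZEB2, with 219 shared in each direction. Those above and below all other arrays were then 159 and 240 for FOXQ1, 125 and 63 for SNAI1, 25 and 86 for TWIST1 and 127 and 57 for ZEB2. At 3-fold the higher and lower members were 178 and 221, 192 and 111, 153 and 121, and 182 and 88 on the same arrays, with 60 shared higher and 51 shared lower. Those above and below were 40 and 59, 8 and 3, 5 and 1, and 10 and 5.

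A member level of 7 gave 5650 members and shares per chromosome of 9.53% to 13.29%. Lower members were then 686 in FOXQ1, 410 in SNAI1, 544 in TWIST1 and 362 in ZEB2 cells, and higher ones 636 on SNAI1 and 610 on ZEB2. SNAI1 stood above in 55, TWIST1 below in 20 and ZEB2 above in 78. A level of 9 gave 2372 members, a lowest chromosome share of 3.74%, 270 lower on FOXQ1, 183 lower on TWIST1, 238 higher on SNAI1 and 228 higher on ZEB2. SNAI1 then stood above in 18, TWIST1 above in 7 and below in 6, and ZEB2 above in 20. These counts move because the settings admit more or fewer members. Only the floor separated signal from background, and without replicates the error of any difference is unknown.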
